A study of Homo sapiens with 4 samples.

Results

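Kinesins and centromere proteins were examined in K562 cells expressing the RUNX1::ERG fusion. The members were the protein-coding genes whose symbol starts with KIF followed by a digit or C, or with CENP followed by a letter. They numbered 64 of the 25702 genes counted, of which 18929 were protein-coding, and comprised 42 KIF genes and 22 CENP genes. By their known roles they were grouped into 15 mitotic kinesins, 17 transport kinesins, 10 ciliary or other kinesins and 22 centromere proteins. The symbol table lists 66 genes of this kind, and CENPS-CORT and CENPVL3 were not among the genes counted. CENP-J and CENP-R are listed under other symbols and were therefore not members.

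K562 is an established line from a chronic myeloid leukemia in blast crisis, with erythroid and megakaryocytic features. RUNX1::ERG joins parts of 2 transcription factors of blood stem cells, and was delivered in the LeGO-iG2 plasmid, which also expresses green fluorescent protein. Control cells received the empty LeGO-iG2 vector by the same transient transfection and were otherwise untreated. Each group had 2 biological replicates, and poly(A)-enriched RNA was sequenced in bulk. Both groups are thus transfected cells of 1 line, the fusion was expressed from a plasmid, and the sources do not say that transfected cells were sorted for this RNA. The general protocol sets assays at 72 h after transfection unless otherwise stated.

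Kinesins are motor proteins that use ATP to move along microtubules or to shorten them. Some build and position the mitotic spindle and drive chromosome movement and the final separation of the daughter cells, while others carry vesicles, organelles and ciliary cargo. Centromere proteins mark the site on each chromosome at which the kinetochore assembles and spindle microtubules attach. Megakaryocytes, the cells that release platelets, become polyploid by endomitosis: they replicate their DNA and enter mitosis but do not complete cytokinesis. RUNX1 and ERG, whose DNA-binding domains the fusion carries, are both known as regulators of the megakaryocytic lineage, which is why mitotic genes are of interest here.

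Promoters of the mitotic members share letters that those of the transport members mostly lack. A RefSeq window from 250 bases before to 50 bases after the transcription start (GRCh38.p14) was at hand for 53 of the 64 members. No window was matched for CENPH, CENPL, CENPM, KIF13B, KIF19, KIF21B, KIF26B, KIF27, KIF5A, KIFC2 and KIFC3. The cell cycle genes homology region (CHR), searched as TTTGAA on both strands, is an element known from genes of the G2 and M phases. It occurred in 10 of 15 mitotic kinesins (66.7%), 5 of 19 centromere proteins (26.3%), 1 of 12 transport kinesins (8.33%) and 0 of 7 ciliary or other kinesins. The share was 15.9% among the 15842 protein-coding genes with a window. All 11 CHR matches of the mitotic kinesins lay within 100 bases of the start. The CCAAT box, searched as CCAAT on both strands, was present in 11 of 15 mitotic kinesins (73.3%), 12 of 19 centromere proteins (63.2%), 4 of 12 transport kinesins (33.3%) and 42.1% of all genes. Both elements stood together in 9 of 15 mitotic kinesins (60%), against 8.17% of all genes. These shares describe letters in a window and not sites shown to be bound.

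The 150 bases before the start are given 5′ to 3′ on the strand of the gene for 6 genes, with CHR and CCAAT matches of either strand in capitals (RefSeq, GRCh38.p14). KIF11 (chr10:92592980-92593129, plus strand), KIF23 (chr15:69414199-69414348, plus strand) and KIF4A (chrX:70289954-70290103, plus strand) represent the mitotic kinesins with both elements. CENPA (chr2:26785906-26786055, plus strand) is among the 4 of 19 centromere proteins (21.1%) that hold both elements. KIF5B (chr10:32056426-32056575, minus strand) is the transport kinesin with a CHR match, and KIFAP3 (chr1:170074696-170074845, minus strand), a kinesin accessory gene described below, holds neither element here.
KIF11: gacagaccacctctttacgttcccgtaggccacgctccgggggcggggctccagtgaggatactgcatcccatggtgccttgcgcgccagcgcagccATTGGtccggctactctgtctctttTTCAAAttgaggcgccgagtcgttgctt
KIF23: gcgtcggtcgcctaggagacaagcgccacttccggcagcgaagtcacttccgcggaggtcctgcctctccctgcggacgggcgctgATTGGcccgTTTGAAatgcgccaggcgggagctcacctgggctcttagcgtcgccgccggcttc
KIF4A: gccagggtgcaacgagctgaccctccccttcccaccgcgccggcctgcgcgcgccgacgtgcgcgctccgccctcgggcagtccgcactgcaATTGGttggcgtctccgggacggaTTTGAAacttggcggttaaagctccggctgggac
CENPA: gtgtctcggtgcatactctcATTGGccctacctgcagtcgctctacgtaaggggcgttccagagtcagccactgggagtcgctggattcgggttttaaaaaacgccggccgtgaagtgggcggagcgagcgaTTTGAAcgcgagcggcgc
KIF5B: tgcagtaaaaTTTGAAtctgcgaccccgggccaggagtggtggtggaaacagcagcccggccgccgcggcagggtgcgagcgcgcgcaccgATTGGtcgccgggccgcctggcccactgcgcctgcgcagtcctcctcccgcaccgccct
KIFAP3: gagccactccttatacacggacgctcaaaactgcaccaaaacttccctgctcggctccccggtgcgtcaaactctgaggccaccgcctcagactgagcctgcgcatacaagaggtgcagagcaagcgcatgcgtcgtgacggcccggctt
In KIF5B the CHR match lies at the far end of the stretch from the start, whereas in KIF11, KIF23, KIF4A and CENPA it lies closer to the start.

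Motifs for the DNA-binding domains of the fusion and for E2F were searched in the same windows. The Runt letters TGTGGT were found in 3 of 15 mitotic kinesins (20%), 1 of 19 centromere proteins (5.26%), 1 of 12 transport kinesins (8.33%) and 14.5% of all genes. The Ets letters CCGGAAG were found in 6 of 15 mitotic kinesins (40%), 3 of 19 centromere proteins (15.8%), 0 of 12 transport kinesins and 16.5% of all genes. The E2F letters TTGGCGC were found in 3 of 15 mitotic kinesins (20%), 0 of 19 centromere proteins and 5.02% of all genes. They also occurred in 1 of 12 transport kinesins (8.33%) and 1 of 7 ciliary or other kinesins (14.3%). The variant TTCGCGC was found in 0 of 15 mitotic kinesins, 2 of 19 centromere proteins (10.5%) and 3.85% of all genes. A single position can serve both CCAAT and TTGGCGC, since the reverse complement of CCAAT ends in the first letters of that E2F motif.

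Library totals ran from 59695387 to 82352144 counts, and a count of 0 allows up to 3 counts, equal to 0.0364 to 0.0503 CPM (counts scaled to the library total) and covering counting error only. Between 66.7% and 68.9% of counts from 1 to 10 were even, as when both mates of a pair are counted. The fusion was visible on both its genes and placed each library in its labelled group. ERG had 4 and 4 counts in the empty vector libraries, and 80443 and 27218 in RUNX1::ERG. RUNX1 had 4736 and 3453 counts in the former and 66232 and 28769 in the latter. The log2 fold change of RUNX1 was 3.22 (adjusted p = 0.00036 in the edgeR quasi-likelihood test, by the Benjamini-Hochberg method over all genes). Of 8 marker genes of K562, 8 were tested and 1 (TAL1) rose. Of 8 megakaryocyte markers, 6 were tested and 5 rose (ITGA2B, ITGB3, PF4, PPBP and VWF). Their summed level was 16.5 and 14.2 normalized CPM (CPM after TMM scaling) in the empty vector and 362 and 290 in RUNX1::ERG. Summed levels of other markers, over all libraries, ran from 21.0 to 34.9 (T cell, CD8A at 0), from 1.17 to 2.06 (B cell, MS4A1 at 0), from 7.85 to 22.0 (monocyte), from 6.19 to 24.8 (fibroblast) and from 3.03 to 24.9 (endothelium). The last 3 lists were higher in both RUNX1::ERG libraries, with 2 (CD14 and LYZ), 1 (COL1A1) and 1 (PECAM1) genes called. Not all their markers rose. FCGR3A had 42 and 10 counts in the empty vector and 8 and 3 in RUNX1::ERG. PDGFRB had a log2 fold change of -1.09 and was not called. The T cell list was lower in both RUNX1::ERG libraries, at 21.0 and 23.9 against 32.9 and 34.9 normalized CPM, with 0 genes called. In these bulk samples more cells of a type and more RNA per cell cannot be told apart, and the part of such cells in the results below was not tested.

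No kinesin or centromere protein gene passed the test between RUNX1::ERG and the empty vector. Of the 64 members, 57 passed the filter on low counts, and 0 of 57 were called at the 0.05 threshold on the adjusted p of edgeR's quasi-likelihood test. Across all 15394 genes tested, 737 (4.79%) were called, 560 (3.64%) higher and 177 (1.15%) lower in RUNX1::ERG. At an unadjusted p under 0.05 there were 5 of 57 members (KIF25, KIFC3, KIF26B, KIF3B and KIF3C), against 18% of all genes tested. DESeq2 and limma voom also called 0 members, where they called 7.51% and 4.47% of all genes, and each had 5 members at an unadjusted p under 0.05, against 13.4% and 17.9% of all genes. Fitted log2 fold changes were above 0 for 29 members and below 0 for 28, with a median of 0.0058, and the median over all genes was -0.0017. Normalized CPM did not overlap between the groups in 22 members, 10 higher and 12 lower in RUNX1::ERG, whereas 25.1% of all genes were higher and 22.1% lower without overlap. With 2 libraries per group the smallest p of an exact two-sided permutation test is 0.333, and the p-values given here depend on edgeR's pooling of the spread over genes.

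Most members had 95% intervals that lay between -1 and 1 on the log2 scale. At a mean of at least 10 CPM there were 47 members, and the 95% interval of the log2 fold change lay between -1 and 1 for 45 of them. At any level, the interval lay within these bounds for 48 of the 57 tested members (84.2%) and for 63.0% of all genes tested. Of the 47 members at a mean of at least 10 CPM, the exceptions were KIF5A and CENPI. KIF5A had a lower bound of -1.28, and CENPI an upper bound of 1.00 after rounding. Among all genes at a mean of at least 10 CPM, 363 of 9138 (3.97%) were called.

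The mitotic kinesins had the narrowest range of fitted values among the classes. Of 15 genes, 14 were tested, 0 were called and 0 had an unadjusted p under 0.05, and fitted log2 fold changes ran from -0.20 to 0.17 with a median of 0.06. The median moved with single libraries, to -0.10 without RUNX1::ERG replicate 2 and to 0.18 without RUNX1::ERG replicate 1. Their summed level was 1152 and 1202 normalized CPM in the empty vector, and 1119 and 1248 in RUNX1::ERG, so that the groups overlapped. For the 12 mitotic kinesins at 10 CPM or more, the bounds of the 95% intervals ran from -0.55 (KIF2A) to 0.56 (KIF18A).

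KIF2C, a depolymerase that corrects faulty kinetochore attachments, had the highest level per kilobase of exon in this class, at 66.8 normalized CPM per kilobase in the empty vector and 65.3 in RUNX1::ERG. It lies on chromosome 1, 45205490 to 45233439 (GRCh37). The normalized CPM of KIF2C were 249 and 238 in the empty vector and 237 and 239 in RUNX1::ERG. The groups overlapped, and the log2 fold change was -0.03 ± 0.14 (SE, n = 2 per group), with an interval from -0.35 to 0.29. KIF2A, a depolymerase of the spindle poles, was at 144 and 134 and at 110 and 133. Here both RUNX1::ERG libraries were below the empty vector, replicate 2 by a narrow margin, at a log2 fold change of -0.20.

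The motors that separate the spindle poles followed the same lines. KIF11, which slides antiparallel microtubules apart and is the target of a class of antimitotic drugs, was at 85.3 and 97.6 normalized CPM in the empty vector and at 84.9 and 110 in RUNX1::ERG. RUNX1::ERG held both the lowest and the highest value, and the log2 fold change was 0.09 ± 0.18 (SE, n = 2 per group). KIF15, which can share this task, was at 46.0 and 47.6 and at 43.8 and 48.2, again with overlap and a log2 fold change of -0.03.

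Chromosome motors gave differences of similar size. KIF18A, which dampens chromosome oscillations, was at 37.4 and 35.6 in the empty vector and at 34.8 and 45.7 in RUNX1::ERG, where replicate 2 alone stood above the rest. KIF22, a motor on chromosome arms, was at 171 and 162 and at 157 and 147, with both RUNX1::ERG libraries lower and a log2 fold change of -0.13 (adjusted p = 0.73). KIF4A, which acts on chromosome arms and shortens the central spindle, was at 76.1 and 88.0 and at 86.6 and 97.7, with overlapping groups and a log2 fold change of 0.17. KIF4B, at 30 to 44 counts per library, is a near-identical retrocopy of KIF4A, and its reads are uncertain.

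Motors of cytokinesis, the step that endomitotic cells do not complete, were within the spread of the replicates. KIF23, the motor of centralspindlin, was at 57.1 and 66.4 normalized CPM in the empty vector and at 61.4 and 75.5 in RUNX1::ERG. KIF20A, which brings the chromosomal passenger complex to the midzone, was at 58.8 and 72.8 and at 59.4 and 78.1. KIF14, a partner of citron kinase at the midbody, was at 108 and 125 and at 119 and 142. In each of these genes the groups overlapped and replicate 2 was the higher library of both groups. The log2 fold changes were 0.15 for KIF23, 0.06 for KIF20A and 0.17 for KIF14, with edgeR adjusted p from 0.68 to 0.92.

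**Figure D1:**
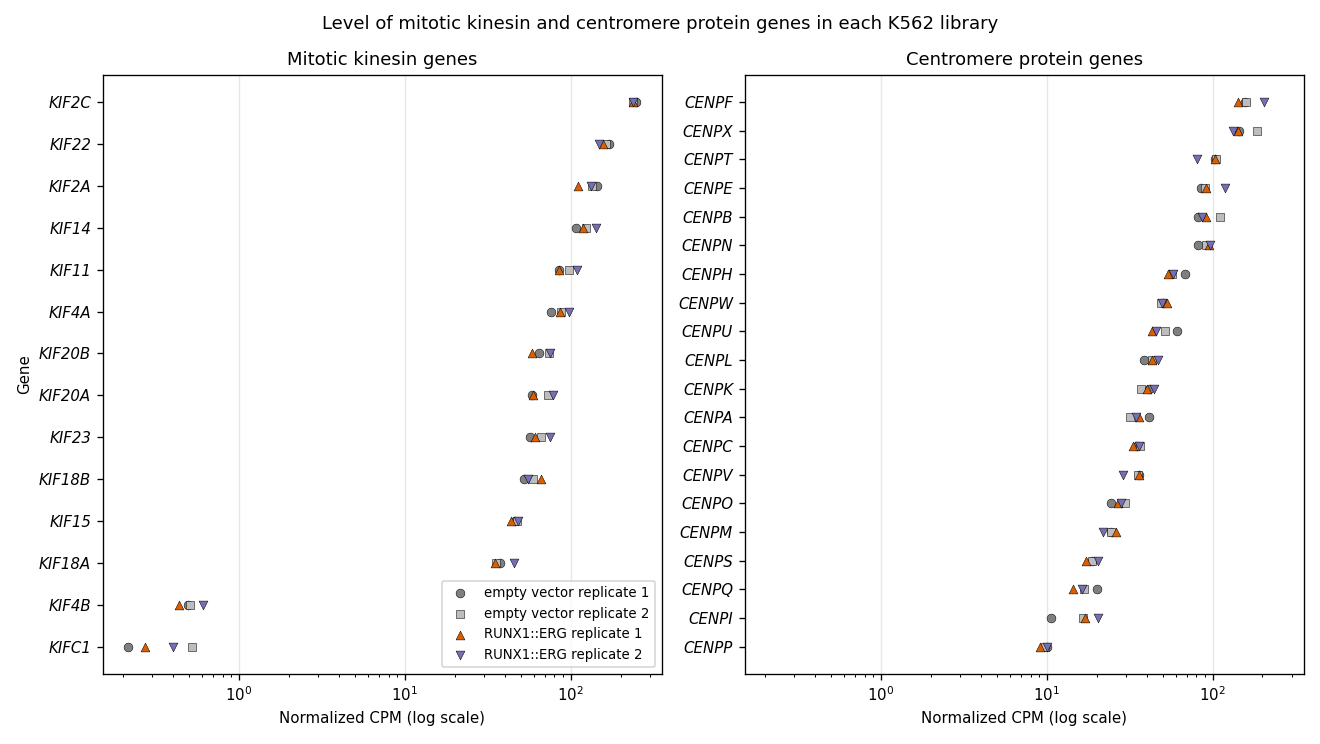
Normalized CPM (x axis, log scale) of the 14 mitotic kinesin genes and 20 centromere protein genes with counts in every library, with 1 point for each of the 4 libraries. The points of KIF2C, from 237 to 249, nearly coincide, those of CENPF run from 141 to 204, and KIF4B and KIFC1 lie apart at the low end.

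The count of KIFC1, a minus-end motor that focuses spindle poles, could not be read as its level. KIFC1 (chromosome 6, 33359600 to 33377673, GRCh37) had 13 and 37 counts in the empty vector and 23 and 29 in RUNX1::ERG, with overlapping groups. Of the 25 protein-coding genes just before it on the chromosome, 2 (8%) had a mean of at least 100 counts, and their median was 0.5. Of the 25 genes just after it, 18 (72%) did, with a median of 2283.5, against 57.8% of all protein-coding genes. RPS18, a ribosomal protein gene 8 places before KIFC1, had 35 to 47 counts per library, whereas RPS10, another such gene 15 places after it, had 56318 to 84884. The genes before KIFC1 belong to the major histocompatibility complex or adjoin it, a region for which distributed copies of hg19 also hold alternative haplotypes. The part of the alignment in these low counts was not tested.

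Centromere proteins likewise showed no call. Of 22 genes, 20 were tested, 0 were called, 0 had an unadjusted p under 0.05, and fitted log2 fold changes ran from -0.35 to 0.46 with a median of -0.03. With library totals in place of TMM scaling the median was 0.01. The summed level was 1133 and 1198 normalized CPM in the empty vector and 1116 and 1180 in RUNX1::ERG. The constitutive network of 15 genes, which links centromeric chromatin to the kinetochore throughout the cycle, had a median of -0.02, with 7 members above 0 and 8 below.

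The proteins at the base of the centromere had small fitted differences. CENPA, the histone variant that marks the centromere, was at 41.2 and 32.0 normalized CPM in the empty vector and at 36.2 and 34.5 in RUNX1::ERG. Both RUNX1::ERG values lay between the control values, and the log2 fold change was -0.05 ± 0.19 (SE, n = 2 per group). CENPB, which binds repeats of alpha satellite DNA, was at 81.2 and 110 and at 91.3 and 86.0. CENPC, a scaffold on CENP-A nucleosomes, was at 35.0 and 36.5 and at 33.1 and 35.9. CENPT, which recruits the outer kinetochore, was at 104 and 106 and at 104 and 81.2, with RUNX1::ERG replicate 2 below the rest. Groups overlapped in each of the 3 genes, whose log2 fold changes were -0.11, -0.05 and -0.18.

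CENPE and CENPF, large proteins of the outer corona, were highest in RUNX1::ERG replicate 2. CENPE is itself a kinesin, which carries chromosomes to the metaphase plate (chromosome 4, 104026506 to 104119602, GRCh37). It was at 84.9 and 89.9 normalized CPM in the empty vector and at 91.8 and 120 in RUNX1::ERG, without overlap. Its log2 fold change of 0.27 ± 0.17 (SE, n = 2 per group) was not called (edgeR adjusted p = 0.47), and leaving out RUNX1::ERG replicate 2 lowered it to 0.06, while leaving out replicate 1 gave 0.45. CENPF was at 157 and 159 and at 141 and 204, with the RUNX1::ERG values on either side of the control, and a log2 fold change of 0.13.

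Among centromere proteins, CENPU and CENPI had the lowest and highest log2 fold changes. CENPU, which docks the kinase PLK1, was at 61.4 and 51.5 normalized CPM in the empty vector and at 42.9 and 45.4 in RUNX1::ERG. The groups did not overlap, and the log2 fold change was -0.35 ± 0.17 (SE, n = 2 per group, edgeR adjusted p = 0.31). CENPI, a subunit needed to load the network, was at 10.6 and 16.6 and at 16.9 and 20.4, with the groups just apart and empty vector replicate 1 the low library. Its log2 fold change was 0.46 ± 0.24 (SE, n = 2 per group, edgeR adjusted p = 0.37), and it was 0.17 without empty vector replicate 1 (adjusted p = 0.81). Without empty vector replicate 2, a fit that called 8.8% of all genes, it was 0.82 and called (adjusted p = 0.038). CENPX, a small histone-fold protein that also acts in DNA repair, had the highest level per kilobase of exon in this class, at 107 normalized CPM per kilobase in the empty vector and 89.6 in RUNX1::ERG. Its normalized CPM were 144 and 184 and then 142 and 132, without overlap and at a log2 fold change of -0.26, which was -0.07 without empty vector replicate 2 and -0.42 without empty vector replicate 1.

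Transport kinesins spread more widely. Of 17 genes, 16 were tested and 0 were called, and 3 had an unadjusted p under 0.05, against 18% of all genes tested. Fitted log2 fold changes ran from -0.83 to 1.22 with a median of 0.15. Leaving out RUNX1::ERG replicate 2 turned this median to -0.09. The summed level was 1110 and 1109 normalized CPM in the empty vector and 1075 and 1123 in RUNX1::ERG. KIF5B, the widely expressed heavy chain of conventional kinesin and the highest of the class per kilobase of exon, made up a large part of it. KIF5B was at 312 and 352 in the empty vector and at 330 and 412 in RUNX1::ERG, with overlap and a log2 fold change of 0.16.

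KIF5A, the heavy chain known from neurons, depended on a single control library. It lies on chromosome 12, 57939809 to 57980416 (GRCh37). The normalized CPM of KIF5A were 68.6 and 32.4 in the empty vector and 37.4 and 28.3 in RUNX1::ERG. Empty vector replicate 1 stood above the other libraries, among which the groups overlapped. The log2 fold change of -0.62 ± 0.30 (SE, n = 2 per group) was not called (edgeR adjusted p = 0.31). It was 0.02 without empty vector replicate 1, and it was -1.06 and called without empty vector replicate 2 (adjusted p = 0.00011). It was also called when no filter on low counts was applied (-0.63, adjusted p = 0.026), a fit that called 7.38% of all genes.

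The minus-end cargo motors of this class differed from each other in their spread. KIFC3, which acts at cell junctions and the Golgi (chromosome 16, 57792129 to 57896957, GRCh37), was at 144 and 125 normalized CPM in the empty vector and at 106 and 91.2 in RUNX1::ERG. Both RUNX1::ERG libraries were below both controls, at a log2 fold change of -0.45 ± 0.16 (SE, n = 2 per group, edgeR adjusted p = 0.17). A fit with the replicate number as a block, in which 11.3% of all genes were called, called it (adjusted p = 0.039). KIFC2 was at 73.1 and 64.7 in the empty vector and at 114 and 49.4 in RUNX1::ERG. The RUNX1::ERG libraries held its highest and its lowest value, and the log2 fold change of 0.24 became -0.48 without RUNX1::ERG replicate 1.

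The kinesin-2 motors, which carry vesicles and ciliary cargo as pairs of KIF3A with KIF3B or KIF3C, had fitted values of opposite sign in these partners. KIF3B (chromosome 20, 30865454 to 30922814, GRCh37) was at 30.3 and 36.5 normalized CPM in the empty vector and at 24.0 and 24.97 in RUNX1::ERG, below both controls. KIF3C (chromosome 2, 26149467 to 26205618, GRCh37) was at 15.4 and 13.0 and at 20.8 and 18.8, above both controls. KIF3A, the common partner, was at 11.8 and 15.1 and at 12.6 and 17.2, with overlap. The log2 fold changes were -0.45 ± 0.18 for KIF3B and 0.48 ± 0.20 for KIF3C (SE, n = 2 per group), with edgeR adjusted p of 0.23 and 0.24, so that neither passed the test. The ratio of KIF3C to KIF3B, taken per kilobase of exon and chosen after these values were seen, was 0.486 and 0.341 in the empty vector and 0.828 and 0.720 in RUNX1::ERG.

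KIFAP3, the accessory subunit that joins the kinesin-2 motor to its cargo and is not a member, rose. Its normalized CPM were 47.8 and 40.4 in the empty vector and 68.1 and 74.1 in RUNX1::ERG. Both RUNX1::ERG libraries were above both controls, and the log2 fold change was 0.69 ± 0.17 (SE, n = 2 per group, edgeR adjusted p = 0.044). It was not called when RUNX1::ERG replicate 1 (0.75, adjusted p = 0.09), RUNX1::ERG replicate 2 (0.62, adjusted p = 0.16) or empty vector replicate 2 (0.57, adjusted p = 0.12) was left out, and was called without empty vector replicate 1 (0.82, adjusted p = 0.012). The stretch before its start printed above holds neither CHR nor CCAAT.

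**Figure D2:**
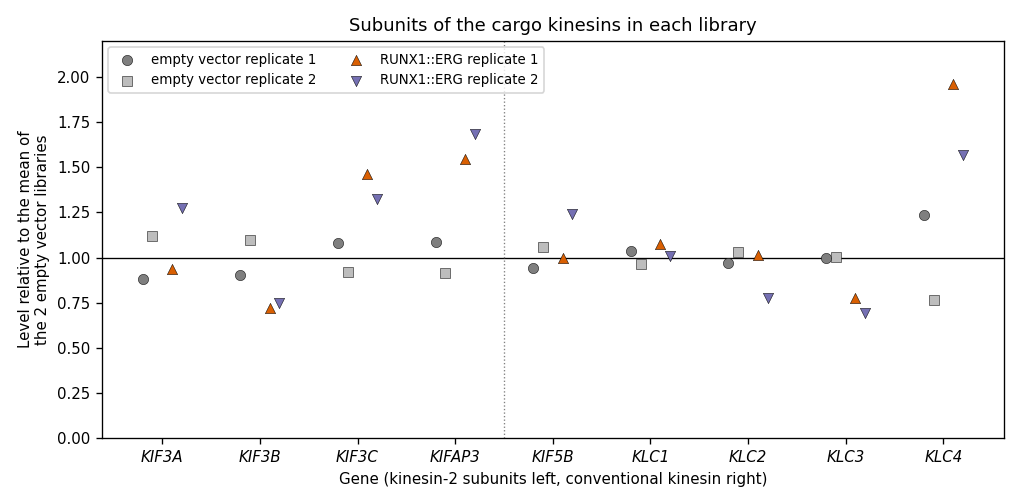
Normalized CPM of the kinesin-2 subunits (KIF3A, KIF3B, KIF3C, KIFAP3) and of KIF5B with its light chains in each library, divided by the mean of the 2 empty vector libraries (linear y axis, 1 point per library). Both RUNX1::ERG points lie above both control points for KIF3C, KIFAP3 and KLC4 and below them for KIF3B and KLC3, and the groups overlap for KIF3A and KIF5B.

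Ciliary and other kinesins were at low levels. Of 10 genes, 7 were tested and 0 were called, and the summed level over the class was 30.6 to 35.6 normalized CPM per library. KIF24, which acts at centrioles and was the highest of the class per kilobase of exon over all 4 libraries, though below KIF9 in the empty vector (1.97 against 2.11 normalized CPM per kilobase), was at 12.6 and 12.8 in the empty vector and at 13.8 and 17.3 in RUNX1::ERG, without overlap and at a log2 fold change of 0.29 (edgeR adjusted p = 0.55), which ran from 0.10 without RUNX1::ERG replicate 2 to 0.44 without RUNX1::ERG replicate 1. KIF7, a regulator of hedgehog signaling at the cilium tip, was at 4.17 and 3.36 and at 3.29 and 2.99, also without overlap, at a log2 fold change of -0.26, which was -0.10 without empty vector replicate 1. The 95% interval lay between -1 and 1 for 4 of the 7 tested genes. The other 3 (KIF19, KIF25 and KIF26B), all at low counts, had intervals that reached beyond these bounds. Those of KIF25 (-4.32 to -0.67) and KIF26B (0.18 to 2.31) excluded 0. In this class 2 of 7 genes had an unadjusted p under 0.05 in the edgeR test, against 18% of all genes tested.

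Several members at low counts had larger fitted values that did not pass the test. KIF19, a depolymerase of cilia, had 7 and 4 counts in the empty vector and 28 and 12 in RUNX1::ERG, and its log2 fold change of 1.54 ± 0.78 (SE, n = 2 per group, edgeR adjusted p = 0.34) was the highest of all tested members. KIF25 had 22 and 17 counts in the empty vector and 2 and 6 in RUNX1::ERG, at a log2 fold change of -2.50 ± 0.83 (SE, n = 2 per group, edgeR adjusted p = 0.13), and was called without empty vector replicate 2 (-2.77, adjusted p = 0.041). KIF26B, a kinesin without motor activity that acts in signaling, had 23 and 28 counts and 64 and 79 counts, at 1.25 ± 0.48 (adjusted p = 0.20). KIF17, a motor of neuronal and ciliary cargo, had 9 and 19 counts and 49 and 29 counts, at 1.22 ± 0.60 (adjusted p = 0.33). KIF1A, a motor of neuronal vesicles, had 14 and 22 counts and 14 and 10 counts, at -0.83 ± 0.65 (adjusted p = 0.58). Normalized CPM did not overlap between the groups in any of these 5 genes, which were chosen after their values were seen. Across all genes tested, the groups did not overlap in 47.2%. The antisense genes KIF25-AS1, KIF23-AS1 and KIF9-AS1 were counted as well, and since no strand setting is given in the sources used here, their reads cannot be told apart from those of KIF25, KIF23 and KIF9.

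The 7 members that were not tested were at or near 0. KIF2B, CENPVL1 and CENPVL2 had 0 counts in every library, which allows up to 0.0503 CPM in the shallowest. KIF12 had 8 counts in empty vector replicate 1, KIF6 had 7 counts in RUNX1::ERG replicate 2, and both were at 0 elsewhere. KIF26A and KIF5C had at most 2 counts in any library.

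Genes that act with these proteins, or mark the cell cycle, were taken from 8 lists. Of 83 genes, 83 were tested and 1 (KIFAP3) was called, against 4.79% of all genes tested, 8 had an unadjusted p under 0.05, against 18%, and the median log2 fold change was -0.0001. Medians were -0.09 for 7 genes of centromere histone deposition, 0.03 for 13 of the outer kinetochore, 0.02 for 7 of the chromosomal passenger complex and shugoshins, and -0.08 for 12 of the spindle checkpoint. They were 0.07 for 8 genes of cytokinesis, 0.08 for 12 of spindle assembly, 0.06 for 9 light chains and adaptors of kinesin, and -0.17 for 15 cell cycle markers. Fitted values of the cell cycle markers were below 0 for 12 genes and above 0 for 3, with 0 called and 3 at an unadjusted p under 0.05. The summed level of these markers was 4436 and 4810 normalized CPM in the empty vector and 4054 and 4336 in RUNX1::ERG, without overlap. This separation rests on MCM7, the largest part of the sum, without which the summed levels of the groups overlap. MCM7 was at 1077.7 and 1054.5 in the empty vector and at 916.79 and 849.58 in RUNX1::ERG. The 6 subunits of the replicative helicase, MCM2 to MCM7, were singled out after their values were seen. Their fitted values were all below 0, from -0.34 to -0.17, and none of these genes was called. The groups did not overlap in 5 of them (MCM4 apart), where 22.1% of all genes tested were lower in RUNX1::ERG without overlap.

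Single genes of these lists with the lowest and highest fitted values did not pass the test, KIFAP3 apart. For deposition these were MIS18A (-0.24) and RSF1 (0.07), for the outer kinetochore SKA1 (-0.50) and ZWINT (0.23), for the passenger complex AURKB (-0.18) and INCENP (0.09), and for the checkpoint MAD2L1 (-0.31) and BUB1 (0.08). CEP55, which recruits the abscission machinery, had the lowest value of the cytokinesis list, at 23.9 and 27.4 normalized CPM in the empty vector and 15.9 and 19.1 in RUNX1::ERG. The groups did not overlap, at -0.55 ± 0.20 (SE, n = 2 per group, edgeR adjusted p = 0.16). The highest of that list was CIT (0.33), and the extremes of spindle assembly were HMMR (-0.15) and NUSAP1 (0.32). KLC4, a light chain of conventional kinesin, was at 18.0 and 11.2 and at 28.6 and 22.9, at 0.82 ± 0.25 (SE, n = 2 per group, edgeR adjusted p = 0.094), without overlap. It was called by DESeq2 (adjusted p = 0.024), without the filter on low counts (adjusted p = 0.006), with the replicate block (adjusted p = 0.011), without RUNX1::ERG replicate 2 (0.96, adjusted p = 0.042) and without empty vector replicate 1 (1.20, adjusted p = 0.00031). Without empty vector replicate 2 it was 0.52 and not called (adjusted p = 0.25). KLC3 had the lowest value of that list at -0.45. MKI67, the proliferation antigen, was at 209 and 224 and at 256 and 338, at 0.46 ± 0.17 (SE, n = 2 per group, edgeR adjusted p = 0.18). Leaving out replicate 2 of RUNX1::ERG gave 0.23 and leaving out replicate 1 gave 0.64, and it was called with the replicate block (adjusted p = 0.038). MCM6, a helicase subunit, was at 255 and 273 and at 199 and 217, at -0.34 (edgeR adjusted p = 0.25).

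The RUNX1::ERG libraries differed in a shared direction over most members, though not over the transport kinesins. RUNX1::ERG replicate 2 was above replicate 1 in 38 of 57 members (66.7%), against 49.6% of all genes tested. The direction was not particular to them, since it held for 77.1% of the 83 list genes and for 91.7% of both the spindle checkpoint and the spindle assembly lists. It was not shared by the transport kinesins, at 8 of 16 (50%), or by the light chains and adaptors of kinesin, at 44.4%. Among the mitotic kinesins, replicate 2 was above replicate 1 in 12 of 14 (85.7%), with a median log2 ratio of 0.28. In the empty vector, replicate 2 was above replicate 1 in 10 of 14 mitotic kinesins, with a median of 0.18, against 47.5% of all genes. Both medians include KIFC1 and KIF4B, whose counts are uncertain. Their log2 ratios were 0.56 and 0.48 within RUNX1::ERG, the highest of the class, and 1.28 and 0.04 within the empty vector. The median ratio within RUNX1::ERG was larger than every fitted difference between the groups in this class.

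This ratio between the RUNX1::ERG replicates followed base composition. Across the 57 members, the log2 ratio of replicate 2 to replicate 1 had a Pearson r of -0.54 and a Spearman rho of -0.62 with the GC content of the longest transcript. Across 14312 genes the values were -0.40 and -0.52. The points share 1 pair of libraries, and genes are not independent replicates, so these values are a description. The ratio between the empty vector replicates had r = 0.03 with GC content over the members, and the log2 fold change between groups had r = 0.04. KIF2A, KIF11, KIF18A, KIF20B and CENPF, with GC contents from 34.3% to 40.8%, were higher in RUNX1::ERG replicate 2, whereas KIFC2, at 68.1%, was lower by 1.20 on the log2 scale. The 16 tested members with a CHR match had a median GC content of 41.7%, and RUNX1::ERG replicate 2 was above replicate 1 in 14 of them. The 30 tested members with a window and no match had a median GC content of 49.8%, with 19 of 30 above. Median log2 fold changes between the groups were 0.10 with the match and -0.12 without. RUNX1::ERG replicates 1 and 2 also differed in the counts of ERG (80443 and 27218) and RUNX1 (66232 and 28769). The parts of GC content, of the promoter element and of the fusion level in these differences cannot be told apart here.

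**Figure D3:**
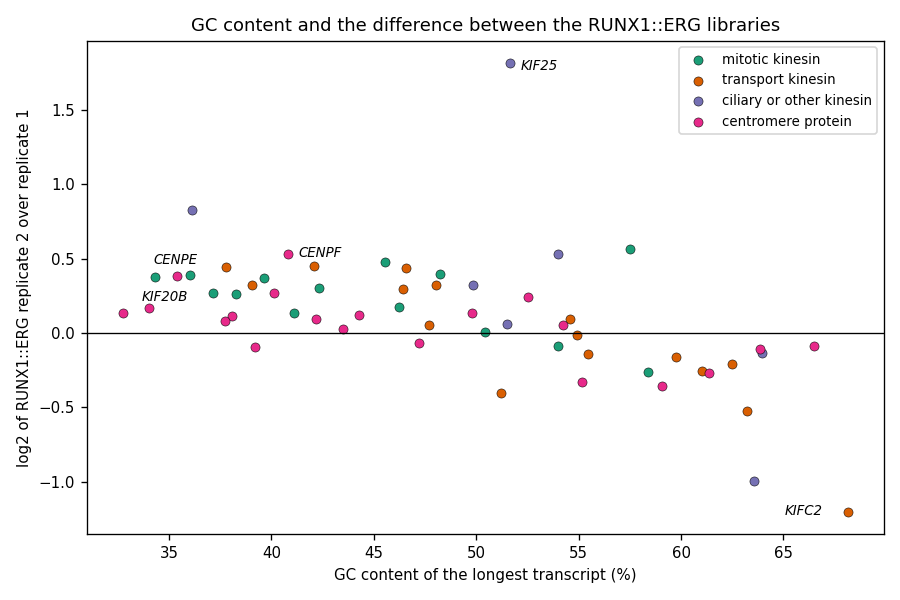
Log2 ratio of RUNX1::ERG replicate 2 to replicate 1 (y axis) against the GC content of the longest transcript in percent (x axis), with 1 point per tested member coloured by role. Points fall from left to right (Pearson r = -0.54 over 57 members), with KIFC2 lowest and most mitotic kinesins above 0.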

How the data were processed

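Whole transcriptome sequencing was done on 4 libraries of transfected K562 cells, 2 biological replicates each for RUNX1::ERG and the empty vector. The authors deposited a raw count for each gene and library, without normalization, by NCBI gene number. Their processing notes name HISAT2 2.2.1, featureCounts 2.0.1 and hg19. The annotation, strand setting and pair counting are not given in the sources used here, so overlapping, antisense and near-identical genes are uncertain.

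Of the gene numbers, 92.2% were matched to symbols of a RefSeq table (GRCh38.p14). Gene positions and exon lengths are those of GENCODE on GRCh37, and promoter windows those of RefSeq on GRCh38.p14. Members followed the symbol rule, and roles, lists and named genes were chosen with earlier results of these data known.

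Counts were analysed in R 4.3.3 with edgeR 4.0.16 (TMM scaling, filter on low counts, quasi-likelihood test, Benjamini-Hochberg adjustment over 15394 genes, threshold 0.05). The standard error is the size of the log2 fold change divided by the square root of F, and the 95% interval uses the t quantile at edgeR's degrees of freedom. The replicates differed by far more than counting noise in both groups and were kept as separate samples. The scripts were tested on simulated data.

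Named genes were any member called, the 5 largest rises and 5 largest falls at a mean of at least 1 CPM, the highest member per exon length in each class, 16 well-known mitotic genes, and the called, highest and lowest genes of each list. Alternatives were DESeq2 1.42.0, limma 3.58.1 voom, other scalings and filters, halved counts, a replicate block and leaving out each library.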

Additional observations from a re-analysis of the deposited data

How the results depend on the processing

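The count of all genes called (737, of which 560 higher and 177 lower) was 1204 with DESeq2 (801 higher, 403 lower), 1500 without a filter on low counts (962 higher, 538 lower) and 1733 with the replicate block (1082 higher, 651 lower), and ran from 354 to 1355 when a library was left out. Under size factors, library totals, voom, halved counts and at least 10 counts in every library it stayed between 618 and 810. Members called numbered 1 without the filter (KIF5A, 61 members tested), 1 with the replicate block (KIFC3) and 0 to 3 with a library left out, where the 3 (KIF5A, KIF25 and CENPI) came without empty vector replicate 2, and 0 under the other alternatives. List genes called numbered 2 with DESeq2, 2 without the filter, 4 with the replicate block (KIFAP3, KLC4, CEP55 and MKI67) and 0 to 2 with a library left out (SKA1 and TRAK2 without empty vector replicate 2). Deviations of libraries with the same replicate number correlated at 0.27 over 15394 genes, but the labels state no pairing and there are only 2 numbers, so the block was not used and changed no other call of a member or list gene. With library totals, KIF2C (0.01) and KIF15 (0.01) turned above 0. With a library left out, the log2 fold change crossed 0 in KIF5A (-1.06 to 0.02), KIFC2 (-0.48 to 0.71), KIF5B (-0.02 to 0.31), KIF11 (-0.12 to 0.26), KIF23 (-0.02 to 0.29), KIF20A (-0.16 to 0.25), KIF18A (-0.08 to 0.33), KIFC1 (-0.64 to 0.64), KIF15 (-0.11 to 0.04), CENPA (-0.22 to 0.15), CENPB (-0.32 to 0.13), CENPC (-0.12 to 0.01), CENPF (-0.17 to 0.37), RSF1 (-0.12 to 0.28), BUB1 (-0.12 to 0.26) and HMMR (-0.48 to 0.11). Without crossing 0, the value also moved by over 1.5 times in KIF4A (0.07 to 0.28), KIF14 (0.02 to 0.29), KIF2C (-0.07 to 0.00), CENPT (-0.37 to -0.02), CENPU (-0.47 to -0.22), MIS18A (-0.35 to -0.15), SKA1 (-0.68 to -0.29), AURKB (-0.30 to -0.06) and CIT (0.18 to 0.50), besides the genes given with such values above. The cause of these differences was not tested. With 2 libraries per group, the 95% interval reached beyond -1 or 1 in 9 of the 57 tested members.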
